A study of Mus musculus with 8 samples.

Results

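SR proteins are splicing factors that carry 1 or more RNA recognition motifs and a tail rich in arginine and serine. The 10 genes Srsf1, Srsf2, Srsf3, Srsf4, Srsf5, Srsf6, Srsf7, Srsf9, Srsf10 and Srsf11 were chosen by symbol, and every row of these genes in 10 deposited tables of splicing events was taken. They are 10 of the 12587 genes in those tables, and they hold 57 of 82858 distinct events. The member events are 41 cassette exons, 4 pairs of mutually exclusive exons, 3 retained introns, 7 alternative 3' splice sites and 2 alternative 5' splice sites. Srsf11 had the most events (15), followed by Srsf4 (10), Srsf5 (8), Srsf6 (6), Srsf9 (5), Srsf10 (4), Srsf3 and Srsf7 (3 each), Srsf1 (2) and Srsf2 (1).

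The study sequenced mRNA from spermatocytes, the germ cells in meiosis, and from round spermatids, the haploid cells that follow them. The cells were sorted by flow cytometry with a Hoechst DNA dye from testes of adult C57BL/6 mice, untreated as far as the labels say, which were either Larp7 knock-out (conditional, per the series' design text) or Wildtype. LARP7 binds and stabilises the 7SK RNA and also binds the U6 spliceosomal RNA. There were 8 libraries, 2 (called biological replicates) for each of the 4 combinations of stage and genotype. Neither the Cre driver nor the number of animals behind each library is given in the labels, so some spread between libraries may be technical. For gene reads, the p-values below rest in part on the spread between each gene's own libraries. For events, within each stage and between stages, they rest on read counts and on a trend in spread across all events. The table headers number the 2 sample groups of each stage without naming a genotype. Each contrast inside a stage is thus signed by group number, the second group subtracted from the first, while the direction of the stage comparison is known. For reference, a 125-nt Larp7 exon (chr3:127544154-127544278, mm10) had, in the row with the most reads, inclusion levels of 2.40 and 0.951% in the first-group spermatocytes, 0.279 and 0.598% in the first-group round spermatids, and 100% in every second-group library.

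Spermatocyte libraries held 51786242 to 102000320 event reads and round spermatid libraries 49904607 to 93265932. A read that falls in several overlapping events is counted in each. Member events held 63634 to 113211 reads in spermatocyte libraries and 14425 to 28573 in round spermatid libraries. In the stage comparison, 9 of 9 measured spermatid markers were higher in round spermatids and 12 of 13 spermatocyte markers were lower. The libraries therefore followed their stage labels.

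SR proteins bind short enhancer sequences in exons and recruit the spliceosome to nearby splice sites. Their arginine and serine tails are phosphorylated by SRPK kinases in the cytoplasm and by CLK kinases in the nucleus, and transportin 3 carries them into the nucleus. Most SR genes carry an ultraconserved poison exon or a retained intron whose inclusion brings a premature stop codon and directs the transcript to nonsense-mediated decay, and SR proteins regulate one another and themselves through these elements. Germ cells change much of their splicing between meiosis and the haploid stage.

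For orientation on the genes, the 250 bases upstream of the annotated start are shown for Srsf1 and Srsf5, the members with the largest and the smallest fall in reads of the most covered event between stages below (without retained introns Srsf6 falls slightly more than Srsf1). The sequences are from RefSeq on GRCm38.p6, read 5' to 3' on the plus strand: chr11:88047123-88047372 for Srsf1 and chr12:80945249-80945498 for Srsf5. Capitals mark matches, on either strand, to GGGCGG (the GC box), CCGGAAG (the ETS core), CCAAT (the NF-Y box) or TGACGT (the core of the cyclic AMP response element).
Srsf1: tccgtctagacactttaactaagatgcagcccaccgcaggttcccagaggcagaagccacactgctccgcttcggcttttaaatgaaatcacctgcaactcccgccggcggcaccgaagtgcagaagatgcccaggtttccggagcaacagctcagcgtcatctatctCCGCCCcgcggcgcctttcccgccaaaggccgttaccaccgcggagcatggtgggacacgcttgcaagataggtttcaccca
Srsf5: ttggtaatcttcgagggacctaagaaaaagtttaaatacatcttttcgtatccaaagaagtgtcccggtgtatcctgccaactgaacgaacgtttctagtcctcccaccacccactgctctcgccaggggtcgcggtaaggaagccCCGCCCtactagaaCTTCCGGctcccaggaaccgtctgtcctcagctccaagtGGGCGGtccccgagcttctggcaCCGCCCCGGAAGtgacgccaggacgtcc
The Srsf1 window held 1 GC box. The Srsf5 window held 3 GC boxes and 2 ETS matches, of which 1 pair overlapped. All 10 members matched the RefSeq promoter table, and 9 of them, all but Srsf3, had a GC box, against 32.7% of 32851 promoter windows of 250 bases. The ETS core was found in 4 members (Srsf4, Srsf5, Srsf7 and Srsf11), against 6.91% of windows. TGACGT was found in Srsf3, Srsf6 and Srsf11, against 6.47% of windows, and CCAAT in Srsf2, Srsf3 and Srsf10, against 33.8%. A member was counted where any of its windows matched, and Srsf4 had 3 windows and Srsf11 had 2. Counts of genes are therefore set against shares of single windows, which favours a higher count for the members. These letter matches are a description and were not tested as binding sites.

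Donor splice sites could be read for 2 member events whose boundary lies inside a promoter window, and they show what borders these exons. Capitals mark the first 6 intron bases, and both runs are from RefSeq GRCm38.p6. The Srsf4 run is the end of the exon before the 207-nt cassette exon (chr4:131873856-131873885, plus strand, 15 exon bases first). The Srsf11 run is the end of a 76-nt exon (chr3:158031969-158031998, minus strand, 8 exon bases first), which was included at 0 to 0.760% in the 8 libraries.
Srsf4: ggatctgaagaacggGTGAGGagggcggcg
Srsf11: cagtaaagGTAAGCtaagttcagtgagcga
Both introns open with GT, the usual donor dinucleotide. The Srsf4 207-nt exon that follows the first of these sites was included at 42.7 to 61.8% in the 8 libraries.

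Reads of all 10 SR genes fell from spermatocytes to round spermatids. A gene's abundance was read from its most covered event, in CPM, the read count scaled to the library's sum over such events, since no gene expression table was used here. Limma called 10 of 10 members lower at an adjusted p below 0.05, and no member's spermatocyte libraries overlapped its round spermatid libraries. Among 8512 genes tested, 78.8% were called between the stages, 50.2% as lower and 28.6% as higher, so a fall by itself was common. The members' median log2 change was -2.08, against -0.43 over all genes tested. Between 4.51% (for Srsf1) and 26.9% (for Srsf5) of all genes fell more than a given member. In bulk libraries fewer cells of a type and less RNA per cell cannot be told apart.

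Srsf1, a founding SR protein that promotes exon inclusion, and Srsf6 had the deepest falls. Srsf1 had 161, 122, 111 and 115 CPM in the 4 spermatocyte libraries and 19.4, 16.7, 16.7 and 19.4 in the 4 round spermatid libraries, in each case the first sample group before the second. Its log2 change was -2.77 (SE 0.148; limma adjusted p = 7.69e-10), a 7.04-fold lower mean. Srsf6 had 235, 177, 256 and 223 CPM in spermatocytes and 31.4, 27.6, 50.2 and 39.5 in round spermatids, a log2 change of -2.59 (SE 0.143; limma adjusted p = 1.01e-09). With retained introns left out, an alternative chosen after seeing the data, the order turned, with -2.82 for Srsf6 and -2.79 for Srsf1. Srsf5 fell the least. It had 466, 420, 696 and 512 CPM in spermatocytes against 160, 219, 259 and 244 in round spermatids, a log2 change of -1.24 (SE 0.135; limma adjusted p = 1.14e-06). The lowest spermatocyte library for Srsf5 was above the highest round spermatid library. Srsf3 and Srsf7, which also act as adapters for mRNA export, changed by -1.99 and -1.89. Srsf2, which stays in the nucleus, changed by -2.29, and Srsf9 (SRp30c) by -2.15. Srsf10, a splicing repressor when dephosphorylated, changed by -2.10, Srsf4 (SRp75) by -2.06 and Srsf11 by -1.82. With median-ratio scaling, under which the median of all genes was -0.02, the members' log2 changes ran from -2.35 to -0.82 and all 10 were still called. That scaling moved the split of all called genes from 2433 higher and 4272 lower to 3278 higher and 3199 lower.

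**Figure D1:**
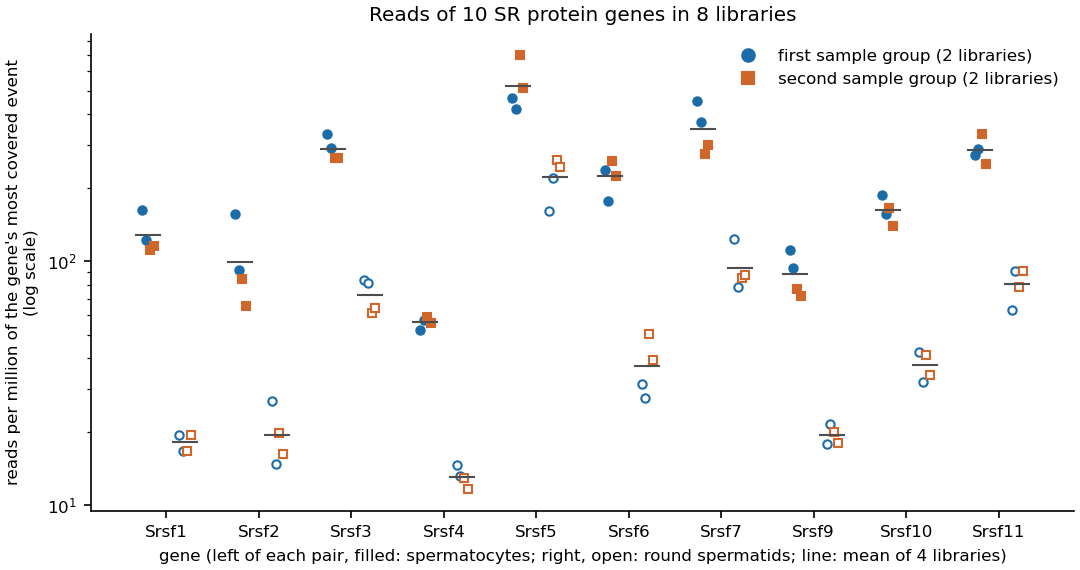
Reads in CPM of the most covered event (log scale) for each of the 10 SR genes in 8 libraries, with filled symbols for spermatocytes, open symbols for round spermatids and a line at the mean of 4 libraries. For every gene the spermatocyte points lie above the round spermatid points, with means of 127 and 18.1 for Srsf1.

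Levels were compared between genes only per kilobase, for each gene's most covered event found at both stages, leaving out retained introns. In spermatocytes Srsf11 had 1169 ± 139 CPM per kilobase, followed by Srsf5 (1149 ± 56.7), Srsf10 (1068 ± 128) and Srsf7 (1060 ± 243), and these 4 did not differ beyond their spread (SD, n = 4). Srsf3 (925 ± 210) came next, then Srsf2 (638 ± 251), Srsf9 (541 ± 122), Srsf6 (531 ± 123) and Srsf1 (393 ± 71.6), and the libraries of each overlapped those of the next. Srsf4 was lowest for the events used, at 172 ± 9.69, below every library of the other members. Its event, a pair of mutually exclusive exons, had on average 20.3 and 35.8 CPM for its forms in spermatocytes, before scaling to length. A 215-nt Srsf4 exon listed in spermatocytes only had 160 CPM in its inclusion form, and an 84-nt Srsf6 exon likewise had 196. The ranks of Srsf4 and Srsf6 therefore depend on the event used. In round spermatids Srsf5 was highest at 470 ± 81.4 CPM per kilobase and Srsf11 had 331 ± 55.5. For these events Srsf1 (57.6 ± 4.97) and Srsf4 (40.0 ± 3.73) were again the lowest. The forms of the Srsf4 pair had 4.62 and 8.45 CPM, against 36.4 for a 90-nt Srsf4 exon listed in round spermatids only.

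Inclusion also moved between the stages. The inclusion level is the share of a form's reads per effective length that belong to the form with the exon or intron, and differences were tested as log2 odds of inclusion. A log2 odds difference is positive where inclusion was higher in round spermatids. Of 43 member events found at both stages, limma called 10, of which 5 were higher and 5 lower in round spermatids. Over all 34455 events tested, 12.5% were called, 6.52% as higher and 6.01% as lower. The called events lay in 6 of the 10 genes (Srsf1, Srsf3, Srsf6, Srsf7, Srsf9 and Srsf11), where 28.4% of all genes tested had a called event. In 8 of the 43 events the 4 spermatocyte libraries did not overlap the 4 round spermatid libraries, against 12.4% of all events. The median difference was 0.04 over the members and 0.07 over all events. The spread behind each test was taken from the trend across all events and not from the event's own libraries, since limma estimated an infinite prior weight for it.

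Inclusion rose in Srsf3, Srsf9 and Srsf7. The 456-nt exon of Srsf3 (ENSMUSG00000071172.12; chr17:29039454-29039909, mm10, plus strand) is the known poison exon of this gene, and its length is a multiple of 3. Its inclusion was 27.5, 34.8, 36.7 and 48.5% in spermatocytes and 50.3, 73.4, 64.5 and 61.1% in round spermatids. The stages did not overlap, although the lowest round spermatid library was close to the highest spermatocyte library. The log2 odds difference was 1.51 (SE 0.232; limma adjusted p = 4.31e-09). Exact Clopper-Pearson 95% intervals of single libraries were 2.81 to 4.73 points wide in spermatocytes and 7.64 to 11.3 points in round spermatids, which covers counting error only.

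Srsf9 (ENSMUSG00000029538.14) encodes a small SR protein with 2 RNA recognition motifs. Its 358-nt exon (chr5:115328347-115328704, plus strand) was included at 10.9, 17.6, 21.4 and 20.6% in spermatocytes and at 44.1, 52.9, 59.5 and 38.7% in round spermatids. The difference was the largest among the called member events, 2.10 in log2 odds (SE 0.337; limma adjusted p = 2.62e-08), and the stages did not overlap. A second row for the same exon, with another upstream exon, was at 78.0 to 90.1% and not called (0.21, SE 0.433; limma adjusted p = 0.872), so the value depends on the flanks against which the exon is measured. A 90-nt Srsf9 exon (chr5:115331450-115331539), a multiple of 3, rose from 16.7 ± 4.96% to 34.7 ± 3.98% (SD, n = 4), a log2 odds difference of 1.41 (SE 0.222; limma adjusted p = 1.24e-08). The 79-nt form of that exon (chr5:115331461-115331539) ends at the same base and shares its skipping reads, and rose from 8.30 ± 2.72% to 18.2 ± 2.60%, a difference of 1.34 (SE 0.246; limma adjusted p = 1.97e-06). These last events are not independent of each other.

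Srsf7 had a smaller shift. Its 36-nt exon (ENSMUSG00000024097.10; chr17:80202169-80202204, minus strand) was included at 87.5, 86.0, 89.7 and 92.6% in spermatocytes and 93.9, 92.1, 94.6 and 94.9% in round spermatids. The log2 odds difference was 0.95 (SE 0.328; limma adjusted p = 0.0347), and the stages overlapped. This call ended when any 1 of 5 libraries was left out, namely the first library of the second group in spermatocytes or any round spermatid library, with limma adjusted p from 0.0927 to 0.207.

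Inclusion fell in Srsf6, Srsf11 and Srsf1. Srsf6 (SRp55, ENSMUSG00000016921.14) is an SR protein with 2 RNA recognition motifs. Its 268-nt exon (chr2:162932815-162933082, plus strand) was included at 38.0, 46.9, 57.2 and 66.7% in spermatocytes and at 26.9, 25.0, 27.1 and 35.0% in round spermatids. No round spermatid library reached the lowest spermatocyte library. The log2 odds difference was -1.49 (SE 0.234; limma adjusted p = 1.04e-08). A 165-nt form with the same start (chr2:162932815-162932979) fell from 9.25 ± 2.01% to 3.01 ± 1.58% (SD, n = 4), a difference of -1.78 (SE 0.450; limma adjusted p = 0.00129), and this call ended without the second library of the first group in round spermatids (limma adjusted p = 0.0854). The 1283-nt intron around both (chr2:162932143-162933425) was retained at 21.2, 27.5, 41.8 and 49.8% in spermatocytes and at 16.3, 17.6, 23.7 and 29.3% in round spermatids. Its difference was -0.94 (SE 0.203; limma adjusted p = 8.15e-05), with overlap between the stages. The intron's inclusion reads may include reads of the 268-nt exon inside it, so its level may overstate retention.

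Srsf11 (ENSMUSG00000055436.18), a protein with a single RNA recognition motif, had a 117-nt exon (chr3:158023243-158023359, minus strand) with a length that is a multiple of 3. It was included at 48.9, 54.9, 47.2 and 48.3% in spermatocytes and at 38.6, 29.4, 27.3 and 28.5% in round spermatids, without overlap. The log2 odds difference was -1.20 (SE 0.231; limma adjusted p = 6.84e-06). Where this exon was measured against the 109-nt exon upstream of it, in another row, it was included at 98.4% or more in every library and was not called (0.62, SE 1.73; limma adjusted p = 0.912). The Srsf1 187-nt exon (ENSMUSG00000018379.17; chr11:88049412-88049598, plus strand) moved from 93.6 ± 1.60% to 88.2 ± 1.78% (SD, n = 4), a difference of -0.97 (SE 0.341; limma adjusted p = 0.0370). This call ended in 9 of 14 alternative settings, among them the absence of count weights (limma adjusted p = 0.106), and without any library but the second of the first group in spermatocytes (0.0626 to 0.318).

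**Figure D2:**
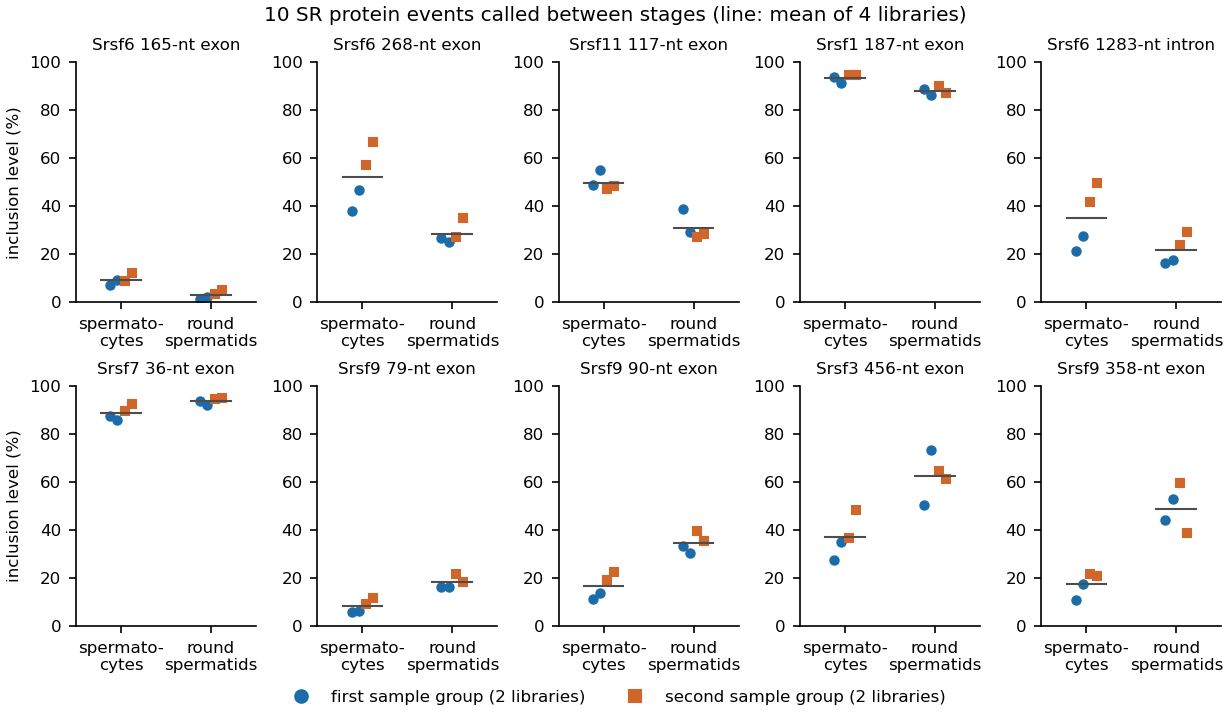
Inclusion level in percent of the 10 SR events called between stages, 1 panel per event, with circles for the first and squares for the second sample group and a line at the mean of 4 libraries. Levels rise to the right in the Srsf3, Srsf7 and Srsf9 panels and fall in the Srsf1, Srsf6 and Srsf11 panels; only the Srsf7 exon and the Srsf6 intron overlap between stages.

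Mean reads of both forms were lower in round spermatids for all 10 called events, by different amounts. For the Srsf3 exon, the inclusion form went from 201, 199, 186 and 209 CPM to 67.0, 74.8, 53.9 and 55.4, a 3.17-fold lower mean. Its skipping form, which encodes the full-length protein, went from 130, 91.7, 79.2 and 54.6 CPM to 16.3, 6.67, 7.31 and 8.70, a 9.13-fold lower mean. These are the reads behind the inclusion levels, so the larger fold loss of the skipping form restates the shift toward inclusion. For the Srsf9 90-nt exon the inclusion form was 2.31-fold and the skipping form 6.49-fold lower in round spermatids.

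The order was the opposite for Srsf6 and Srsf11. The form with the Srsf6 268-nt exon went from 112, 94.0, 121 and 119 CPM to 11.3, 8.43, 13.1 and 11.9, a 9.98-fold lower mean, while skipping reads were 3.88-fold lower. Reads including the Srsf11 117-nt exon were 6.81-fold lower and those skipping it 3.13-fold lower. In these 2 events the form with the exon had the larger fold loss, which again restates the fall in inclusion.

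**Figure D3:**
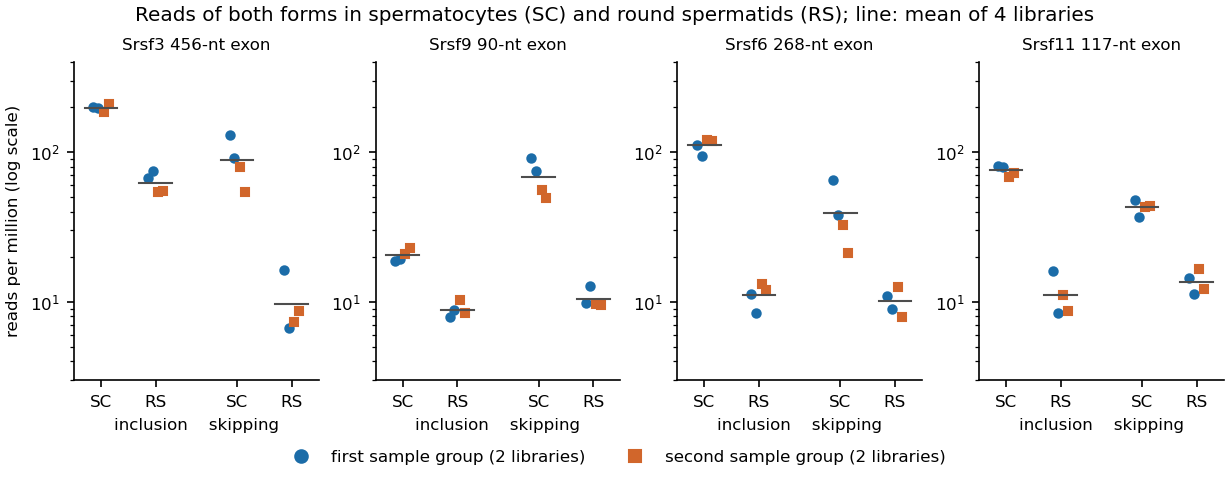
Reads in CPM (log scale) of the inclusion and skipping forms of 4 events in spermatocytes (SC) and round spermatids (RS), with circles for the first and squares for the second sample group and a line at the mean of 4 libraries. In Srsf3 and Srsf9 the skipping form drops further (9.13-fold and 6.49-fold), and in Srsf6 and Srsf11 the inclusion form does (9.98-fold and 6.81-fold).

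Srsf2, Srsf4, Srsf5 and Srsf10 had no event called between stages. The Srsf2 104-nt exon (ENSMUSG00000034120.18; chr11:116851648-116851751, minus strand) stood at 6.25, 6.30, 5.95 and 8.23% in spermatocytes and at 8.31, 5.56, 13.5 and 7.07% in round spermatids, with a difference of 0.44 (SE 0.265; limma adjusted p = 0.353). The Srsf4 207-nt exon (ENSMUSG00000028911.16; chr4:131884276-131884482, plus strand) had levels of 42.8, 58.6, 51.0 and 61.8% against 48.2, 42.7, 50.7 and 50.3%, a difference of -0.33 (SE 0.278; limma adjusted p = 0.578). For both exons the stages overlapped. The Srsf10 54-nt exon (ENSMUSG00000028676.17; chr4:135863523-135863576, plus strand) was included at 98.4% or more in every library, with a difference of 0.50 (SE 0.844; limma adjusted p = 0.836). The Srsf5 266-nt exon (chr12:80947116-80947381, plus strand) was included at 95.6% or more, with a difference of -0.32 (SE 1.05; limma adjusted p = 0.928). These wide errors reflect few reads of the rarer form, so small shifts in either exon were not detectable at this depth.

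Between the sample groups of spermatocytes, inclusion was lower in the first group for 4 SR events, all in Srsf5 and Srsf6. Limma called 4 of 53 events, against 0.542% of all 61123 events tested, and 2 of 10 genes, against 2.58% of genes. At an unadjusted p below 0.05 there were 14 of the 53 member events. The share of all events at that threshold was not counted, so this count has no background to be read against. Library levels of the groups did not overlap in 27 of the 53, against 32.5% of all events. The median difference was -0.44 over the members and -0.38 over all events, and 35 of 53 member events lay below 0 against 64.2% of all events. Among all events the shift was largest for cassette exons (median -0.87, 68.4% below 0) and small for retained introns (median -0.09, 55.4% below 0) and mutually exclusive exons (median -0.01, 51.3% below 0). Among all retained introns tested, 1.93% were called.

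Srsf5 (SRp40, ENSMUSG00000021134.17) supplied 2 of the calls. Its 1229-nt intron (chr12:80947866-80949094, plus strand) was retained at 14.7 and 14.0% in the first-group spermatocytes and at 30.5 and 25.1% in the second group. The groups did not overlap, and the 2 second-group libraries also differed from each other. Exact Clopper-Pearson 95% intervals of single libraries, which cover counting error only, were 1.18 to 2.52 points wide. The log2 odds difference was -1.22 (SE 0.157; limma adjusted p = 2.36e-10). The retained form had 286 and 253 CPM against 559 and 387, and the spliced form 180 and 167 against 138 and 125. The retained form was thus lower and the spliced form higher in the first group. An alternative 5' splice site of Srsf5 that adds 4 nt (chr12:80945669-80945672) had an inclusion level of 89.5 and 93.4% against 98.4 and 96.9% in the second group; the log2 odds difference was -1.73 (SE 0.333; limma adjusted p = 0.000212).

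Srsf6 supplied the other two. The 1283-nt intron had levels of 21.2 and 27.5% against 41.8 and 49.8%, a difference of -1.33 (SE 0.204; limma adjusted p = 6.46e-07). The 268-nt exon inside it had 38.0 and 46.9% against 57.2 and 66.7%, a difference of -1.07 (SE 0.214; limma adjusted p = 0.000438). Neither pair of groups overlapped. The exon and the intron share their skipping reads, and the exon's inclusion reads equalled 54.1 to 67.7% of the intron's in spermatocytes although it spans 20.9% of the intron's length. In round spermatids that share was 34.8 to 54.9%. The levels of the exon and the intron are therefore not independent measurements, and the intron's level may overstate retention.

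The 4 spermatocyte calls rested on how the spread was estimated. They held with a quasi-binomial test and where at least 10 reads of the rarer form were required (limma adjusted p from 2.39e-04 to 0.00610), but all ended without count weights (limma adjusted p from 0.0872 to 0.227), with a trend on total reads (0.0997 to 0.351) and with no filter on low reads. All 4 also ended whenever any 1 of the 4 libraries was left out, with a limma adjusted p of 0.202 to 0.730 for the Srsf5 intron. Every difference kept its direction in these settings, and without 1 library the Srsf5 intron ran from -1.40 to -1.01 and the Srsf6 intron from -1.60 to -1.11.

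**Figure D4:**
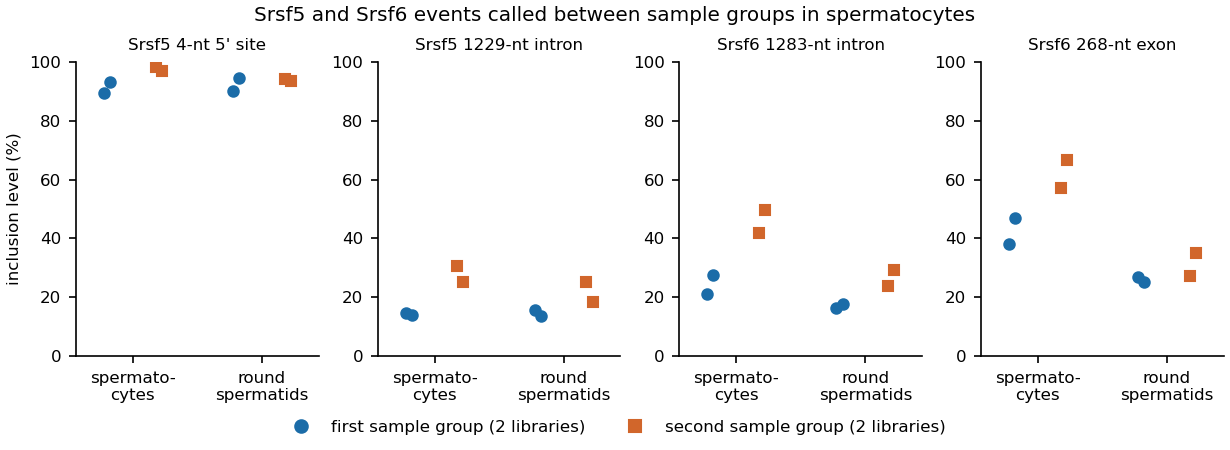
Inclusion level in percent of the 4 Srsf5 and Srsf6 events called in spermatocytes, with circles for the 2 libraries of the first and squares for the 2 of the second sample group, at each stage. In spermatocytes the first group lies below the second in all 4 panels, as in the Srsf5 intron (14.7 and 14.0% against 30.5 and 25.1%).

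No SR gene passed the test of reads between the spermatocyte groups. No second tool was run on gene reads. Limma called 0 of 10 members, against 5.56% of all genes. At an unadjusted p below 0.05 there were 5 of the 10 members, against 2452 of all 9861 genes tested. Log2 differences ran from -0.45 for Srsf5 (limma adjusted p = 0.0969) to 0.66 for Srsf2 (limma adjusted p = 0.0904). Srsf5 was called lower in the first group with median-ratio scaling (limma adjusted p = 0.0375) and without the second library of the second group (-0.68; limma adjusted p = 0.00943). Srsf7, at 0.50 (limma adjusted p = 0.0568), was called higher with the sum over all events (0.0444), without that same library (0.0470) and without the second library of the first group (0.0192). Srsf2 was called higher without the second library of the first group (1.03; limma adjusted p = 0.00381). The most covered event of both Srsf5 and Srsf6 is the retained intron itself. When retained introns were left out, the Srsf5 and Srsf6 differences were 0.07 and 0.01 and no member was called.

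Genes listed as markers of other cells moved with the same comparison. Among spermatogonial markers, 8 of 13 were measured and 6 were called higher in the first group. Their sums were 493 and 185 CPM against 69.3 and 66.4 in the second group. Most of these sums was Dazl, with 260 and 124 CPM against 50.2 and 41.4. Within the first group, every measured marker was higher in the first library than in the second. Dmrt1, a spermatogonial transcription factor, had 42.5 and 6.77 CPM against 1.32 and 2.92. Gfra1, Nanos3, Sall4, Lin28a and Ccnd2, other genes of that list, were not measured. For Sertoli cells, 4 of 8 markers were measured and 3 were higher in the first group, with sums of 205 and 135 against 40.9 and 69.2. Leydig, peritubular and immune markers had 3 of 10 measured and 0 called by limma, with 1 at an unadjusted p below 0.05, and sums of 65.9 and 39.8 against 34.5 and 44.1. Spermatid markers had 9 of 16 measured and 0 called by limma, with 2 at an unadjusted p below 0.05. Their sums were lower in the first group, 2269 and 2678 against 3322 and 3103. Most of these sums was Odf2, with 1398 and 1757 against 2329 and 1980. For Spaca1, Spaca7, Izumo1 and Catsper1 the groups overlapped. Spermatocyte markers themselves were called higher for 5 of 13, with sums of 12687 and 11942 against 12459 and 10293. Most of these sums was Ldhc, with 7986 and 7747 against 8271 and 6751, so they hide opposite movements. Sycp1 had 415 and 306 against 174 and 152. Sycp2, Sycp3, Hormad1, Dmc1, Meiob and Msh4 were also higher in the first group without overlap. Spo11 had 166 and 168 against 270 and 215, and Ccna1 and Piwil1 were also lower without overlap. The part of cell composition, of other cells or among spermatocytes, in the Srsf5 and Srsf6 differences was not tested.

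In round spermatids no SR event was called between the sample groups. Limma called 0 of 47 events and the quasi-binomial test 0. At an unadjusted p below 0.05 there were 5 of the 47, and the share of all events at that threshold was not counted. Over all 48060 events 0.131% were called, and 0.515% of genes had a called event. The groups did not overlap in 20 of 47 member events, against 26.7% of all events. The Srsf5 intron was retained at 15.5 and 13.6% against 25.3 and 18.3%, a difference of -0.72 (SE 0.237; limma adjusted p = 0.452). The Srsf6 intron had 16.3 and 17.6% against 23.7 and 29.3%, a difference of -0.75 (SE 0.322; limma adjusted p = 0.641). In both introns the first-group libraries were again the lower ones, without overlap. The Srsf6 268-nt exon had a difference of -0.32 (SE 0.378; limma adjusted p = 0.677) and the Srsf5 4-nt site -0.23 (limma adjusted p = 0.840). Whether any difference between sample groups itself differs between stages was not tested. For gene reads, limma called 0 of 10 members, against 0.0859% of all genes, with differences from -0.57 (Srsf6) to 0.41 (Srsf3). At an unadjusted p below 0.05 there was 1 of the 10 members, against 1039 of all 9315 genes tested.

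**Figure D5:**
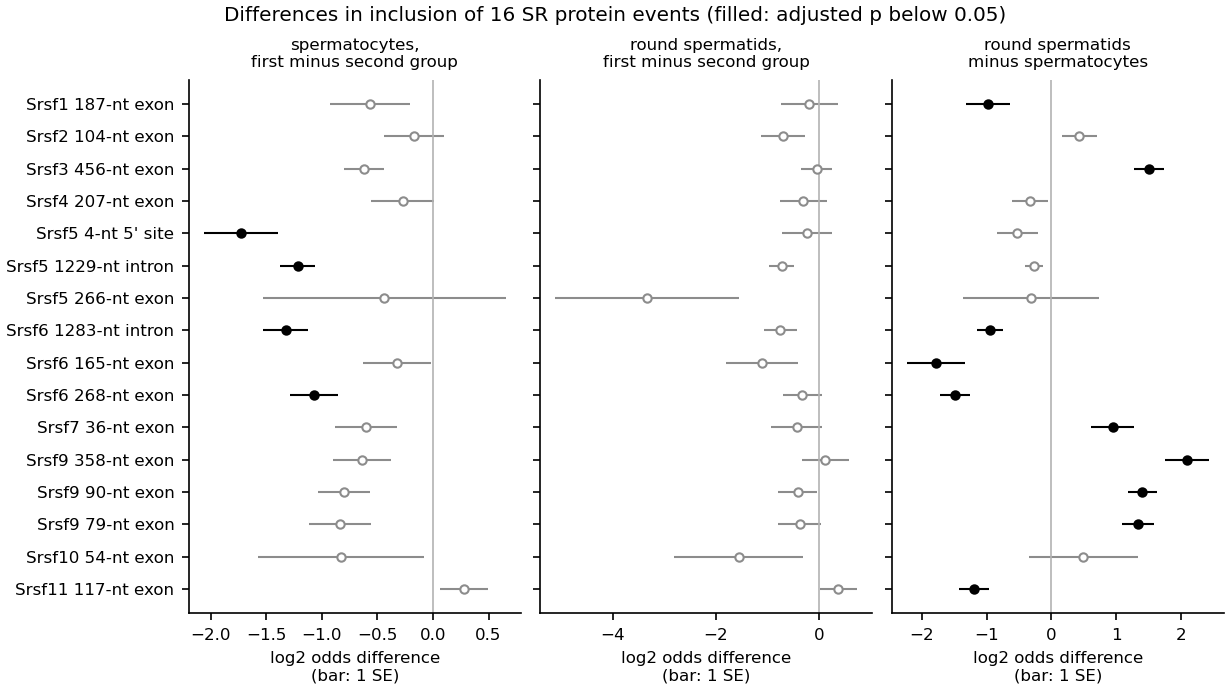
Log2 odds differences of 16 named SR events with bars of 1 SE, for the sample groups (first minus second) in spermatocytes and round spermatids and for round spermatids minus spermatocytes; filled symbols have an adjusted p below 0.05 and the axes differ in range. The 4 filled symbols in spermatocytes are all below 0, none is filled in round spermatids, and the stage panel has 5 filled on each side.

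Some events came close to the threshold in spermatocytes. The Srsf3 456-nt exon differed by -0.62 (SE 0.180; limma adjusted p = 0.0832) and the Srsf9 90-nt exon by -0.80 (SE 0.236; limma adjusted p = 0.0908). An Srsf11 109-nt exon (chr3:158024123-158024231, minus strand) was picked out after its values were seen. It was included at 54.1 and 48.4% in the first-group spermatocytes against 32.7 and 32.5% in the second, and at 60.5 and 46.2% against 27.0 and 32.8% in round spermatids. The first group was thus the higher one at both stages, without overlap. The differences of 1.05 (SE 0.312; limma adjusted p = 0.0963) and 1.36 (SE 0.534; limma adjusted p = 0.641) did not pass. In a second row of this exon, with another downstream flank, the levels were 17.1 and 21.1% against 11.9 and 11.3% in spermatocytes. The authors' deposited table gives the first row an FDR of 7.26e-05 with a level difference of 0.186 in spermatocytes, and an FDR of 0.0394 with a difference of 0.234 in round spermatids. Taking both an FDR under 0.05 and a change of 10 points or more, the authors' deposited tables hold 4 member events in spermatocytes (this exon, the Srsf5 and Srsf6 introns and the Srsf6 268-nt exon) and 1 in round spermatids (this exon). The same rule takes 2.5% of all spermatocyte events and 1.47% of all round spermatid events, so the single round spermatid event is near the share over all events.

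The other 41 member events of the 57 fall outside the rule for named events. Over all 57, 26 were included at 95% or more in every library, 3 at 5% or less, and 28 between these limits. In 16 events the rarer form had fewer than 10 reads over the 8 libraries, so changes there were not detectable. Among the 41, a 3-nt alternative 3' splice site of Srsf10 was used at 72.3 to 76.7% in spermatocytes and 74.2 to 83.1% in round spermatids. A 201-nt Srsf5 intron (chr12:80947595-80947795) was retained at 1.96 to 3.17%, far below the 1229-nt intron downstream of it.

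The 3 introns of other genes whose log2 odds followed each called intron most closely over the 8 libraries were found among 528 introns, by the root mean square difference after centring. For the Srsf5 intron these lay in Clasrp (0.215), Clk3 (0.250) and Cnbp (0.262), against a median of 0.723. The Clasrp intron was retained at 9.51 and 9.44% in first-group spermatocytes and at 20.7 and 21.7% in the second group. For the Srsf6 intron they lay in Ggn (0.190), Ccl27a (0.261) and Mau2 (0.387), against a median of 0.763. All values share the same libraries and their depths.

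Genes that act on SR proteins, and related genes, were counted from lists chosen with earlier results of these data known. The shares of these lists are therefore a description and not an independent test. Among kinases, the phosphatase and import factors of SR proteins, 2 of 13 genes had a called event between the spermatocyte groups (2.58% of all genes), 1 of 12 between the round spermatid groups (0.515%) and 10 of 12 between stages (28.4%). A 67-nt exon of Clk4, a nuclear SR kinase (chr11:51268165-51268231), was included at 49.8 and 41.9% in first-group spermatocytes against 14.3 and 20.9%, a difference of 1.88 (SE 0.336; limma adjusted p = 3.39e-05). Its groups did not overlap. A 2100-nt intron of Clk3, another such kinase (chr9:57758724-57760823), had levels of 11.5 and 11.7% against 20.8 and 18.0% in spermatocytes (-0.87, SE 0.202; limma adjusted p = 0.00699). In round spermatids the same Clk3 intron had 8.43 and 7.66% against 16.8 and 15.1% (-1.14, SE 0.248; limma adjusted p = 0.00780). It was lower in the first group at both stages. Between stages, 13 of 83 events of this list were called higher and 16 lower in round spermatids, against 6.52% and 6.01% of all events. A 64-nt exon of Srpk2, a cytoplasmic SR kinase, was included at 88.3% or more in spermatocytes and 55.2 to 68.1% in round spermatids (-3.03; limma adjusted p = 5.54e-12). Gene reads of the list rose for 2 and fell for 6 of 12 genes, with a median log2 change of -0.43, as over all genes (-0.43).

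Other splicing proteins with arginine and serine rich domains had a called event in 8 of 32 genes in spermatocytes, against 2.58% of all genes. There 9 of 332 events were called higher and 5 lower in the first group, where 0.542% of all events were called. Between stages 20 of 31 genes had a called event, against 28.4% of all genes. Of 214 events tested, 13 were called higher and 38 lower in round spermatids, against 6.52% and 6.01% of all events. In round spermatids 0 of 31 genes had a called event by limma and 0 events were called by the quasi-binomial test. At an unadjusted p below 0.05 there were 19 of 239 events, without a counted share over all events. A 45-nt exon of Rsrp1, an arginine and serine rich protein, differed by 2.34 between the spermatocyte groups (limma adjusted p = 4.60e-09). Like the SR events, the spermatocyte calls of Clk4, Clk3 and Rsrp1 ended with a trend on total reads, with no filter on low reads and without either second-group library, settings in which limma called 0 of all events. The Clk3 call in round spermatids ended in the same settings of that stage. A 64-nt exon of U2af2, which reads the polypyrimidine tract at 3' splice sites, rose from 2.09 to 3.57% in spermatocytes to 34.1 to 42.6% in round spermatids (4.41, SE 0.351; limma adjusted p = 2.86e-33). Gene reads of this list fell for 30 of 32 genes and rose for 2, with a median log2 change of -1.74, near the -2.08 of the SR genes.

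Factors of nonsense-mediated decay and the exon junction complex, which act on transcripts with poison exons, had a called event in shares of genes near those over all genes. In spermatocytes limma called an event in 0 of 14 genes (2.58% of all genes), the quasi-binomial test in 0, and 11 of 120 events had an unadjusted p below 0.05. The same counts in round spermatids were 0 of 13 genes (0.515% of all genes), 0, and 3 of 82 events. For the unadjusted counts the share over all events was not counted. Between stages 4 of 13 genes had a called event, against 28.4% of all genes. A 200-nt exon of Magohb, a core exon junction protein, was included at 21.2 to 45.8% in spermatocytes and 68.1 to 79.5% in round spermatids (2.42, SE 0.287; limma adjusted p = 5.14e-15). Gene reads of this list rose for 2 and fell for 7 of 13 genes, with a median log2 change of -0.46 against -0.43 over all genes.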

How the data were processed

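Spermatocyte and round spermatid mRNA was sequenced in 8 libraries (4 groups of 2). Per the submitters' processing notes, STAR and mm10 were used; no source used here gives versions or the splicing caller. Per the file headers, the deposited tables give, for each event, whole-number reads of the inclusion and skipping forms for each library, effective form lengths and inclusion levels as fractions. The authors' level difference, a score between sample groups, and the authors' deposited p-value and FDR were copied only where named. The columns that hold 2 libraries carry no genotype or replicate name.

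Events with at least 10 reads per library on average and a read of each form were tested in limma 3.58.1 (R 4.3.3). An average of 0.5 reads, scaled to the event's reads in each library, was added to each form, and log2 odds of inclusion were weighted by inverse counting variance with a trend on reads of the rarer form. Gene reads were tested as log2(CPM + 0.5) of the most covered event, a scale that understates changes of low genes, with Benjamini-Hochberg adjustment over all events or genes and a threshold of 0.05. In the stage comparison 4 groups shared 1 spread. Tests were run on simulated data, where false calls exceeded the threshold and were fewer with at least 10 reads of the rarer form. No batch is given in the labels. Plots used matplotlib 3.10.9 (Python 3.11.15).

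Named events were those called, 1 per exon or intron, plus each member's cassette exon and retained intron with the most reads of the rarer form, and at most 4 genes per pathway list, smallest p first. The Srsf11 109-nt exon, the 201-nt Srsf5 intron and the 3-nt Srsf10 site were chosen after their values were seen. The members and lists were chosen with earlier results of these data known. Alternatives changed the trend, added reads, weights, filters, test, scaling, pseudocount, abundance measure and libraries.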

Additional observations from a re-analysis of the deposited data

How the results depend on the processing

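The count of SR events called between the spermatocyte groups (4) went to 0 with no filter on low reads, 0 with no weights and 0 with a trend on total reads, and ran from 0 to 6 when 1 library was left out. The 6 events called without either first-group library included 0 of the 4. In round spermatids the count (0) was 1 by the authors' deposited FDR and difference, and ran from 0 to 6 when 1 library was left out. With 1 library left out, the lone library of a group is assumed to vary like the other group and 1 residual degree of freedom remains. For SR gene reads in spermatocytes the count (0) was 1 with median-ratio scaling, 1 with the sum over all events and 0 to 2 with 1 library left out, and in round spermatids (0) it was 0 to 1. SR events called between stages ran from 7 to 11 (10 as reported), and all 10 genes kept their fall in reads under every alternative run. No called value reversed its direction.

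Over all events, the spermatocyte count of 331 went to 0 with the trend on total reads, 21 with no weights, 0 with no filter, 0 to 11389 with 1 library left out and 1653 by the authors' deposited values. The round spermatid count of 63 went to 0, 28 and 0 in the same settings, 11 with at least 10 reads of the rarer form, 0 to 6593 with 1 library left out and 780 by the authors' values. The stage count of 4317 fell to 2745 with no weights and to 2368 with 1 library left out. Gene reads called in spermatocytes (548) went to 247 with no filter and 59 to 1714 with 1 library left out, and in round spermatids (8) to between 7 and 1081. The cause of these changes was not tested. No paired analysis was possible because the columns carry no replicate number. Few reads of the rarer form limit the Srsf5 266-nt (12 reads over 8 libraries) and Srsf10 54-nt exons (34) and the 16 events with fewer than 10, and 2 libraries per group limit all differences within a stage.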
